A study of Homo sapiens with 6 samples.

Results

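Keratins are the intermediate filament proteins of epithelial cells, and a filament needs a type I keratin (acidic) paired with a type II keratin (basic). KRT8 (type II) with KRT18 and KRT19 (type I) form the filaments of simple and luminal epithelia, while KRT5 (type II) with KRT14, KRT15 and KRT17 (type I) mark basal cells of layered epithelia, where the transcription factor TP63 maintains the basal state. The 10 genes described here were chosen by symbol as these luminal genes, these basal genes and 2 further keratins of simple epithelia, KRT7 and KRT23. Of the 10, 8 were measured in a table of 37923 genes: 3 luminal genes, 4 basal genes and KRT7. KRT14 and KRT23 were not analysed here.

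RNA was sequenced from 6 libraries of cells labelled RKO, a human colorectal carcinoma line, with 3 libraries labelled Control and 3 labelled ENZ. The series design gives the ENZ group an exposure to A3, a compound that degrades the histone demethylase LSD1, with RNA taken at 48 h. The labels give no vehicle for the Control group, do not say what ENZ stands for, and name the same line, tissue and protocol for both groups. The design calls the 3 libraries of a group biological replicates without saying what separated them, so the spread behind each p-value may be technical.

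Library totals ran from 26691289 to 30025543 counts, and 7393 of 18581 genes tested (39.8%) were called between the groups at an adjusted p under 0.05. Levels are CPM (counts scaled to a common library total) when 1 gene is compared across libraries. Fold changes and percent falls come from the fitted model (edgeR), which also rescales for library composition (TMM). They therefore differ slightly from the ratio of the mean CPM. Comparisons between genes use values per length. Markers of the labelled tissue were mostly low: of 9 colorectal epithelial genes measured, 6 had a mean under 1 CPM, and KRT20, the keratin of intestinal epithelium, did not exceed 0.0368 CPM in any library. VIL1, an actin-bundling protein of the brush border, had 39.9 CPM in Control and 57.8 in ENZ. Markers of prostate luminal cells, chosen with earlier results of these data known, summed to 3037 to 3105 CPM in Control and 3259 to 3290 in ENZ, with 9 of 12 genes over 10 CPM. Markers of leukocytes all had a mean under 1 CPM. Fibroblast markers summed to 77.7 to 86.7 CPM in Control and 40.1 to 43.0 in ENZ, most of it from LUM (67.4 and 29.2 CPM) and COL1A1 (11.5 and 12.1), while COL1A2, THY1 and FAP did not exceed 0.0375 CPM. The part of these markers in the results was not tested.

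KRT8, KRT18 and KRT19 were the 3 most abundant of the genes described here, and the basal genes were at or near the counting limit in both groups. All 3 luminal keratins were lower in ENZ: KRT19 fell by 26.8%, KRT8 fell by 17.7% and KRT18 fell by 11.2%. KRT7 had a similar mean in both groups. Of the basal genes only KRT15 had enough counts for a test, at under 1 CPM. TP63, KRT5 and KRT17 had 12, 1 and 0 counts over all 6 libraries. In bulk RNA, fewer cells with a transcript and less of it per cell cannot be told apart.

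KRT8 and KRT5 are both type II keratins of the cluster on chromosome 12, and their upstream sequences are shown because they are the most abundant and a nearly silent member of that cluster here. RefSeq windows (GRCh38.p14) were matched for KRT8, KRT5 and TP63. The 250 bases before the start site follow 5′ to 3′ on the coding strand, at chr12:52926470-52926719 (minus strand) for KRT8 and chr12:52520395-52520644 (minus strand) for KRT5, with capitals for motif matches.
KRT8: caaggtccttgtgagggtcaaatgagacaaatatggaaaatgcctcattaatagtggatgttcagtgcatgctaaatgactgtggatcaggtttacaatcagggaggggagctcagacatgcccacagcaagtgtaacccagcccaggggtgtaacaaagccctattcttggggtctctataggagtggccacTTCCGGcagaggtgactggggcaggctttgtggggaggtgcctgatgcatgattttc
KRT5: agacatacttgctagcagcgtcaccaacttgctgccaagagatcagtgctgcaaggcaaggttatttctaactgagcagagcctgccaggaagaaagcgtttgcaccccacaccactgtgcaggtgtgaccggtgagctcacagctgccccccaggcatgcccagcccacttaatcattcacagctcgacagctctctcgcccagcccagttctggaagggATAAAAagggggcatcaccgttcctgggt
The KRT8 window belongs to an upstream start site, 21393 bases from the start of the Ensembl canonical transcript, so it is not the window before the canonical transcript. The KRT5 window ends at the canonical start. In capitals are an ETS match (CCGGAA) 57 bases before the start in KRT8 and a shortened TATA match (ATAAAA) 29 bases before the start in KRT5. Over all 35116 RefSeq windows of this length 14.5% held the ETS letters and 14.8% the shortened TATA letters, searched on both strands. In neither window were there matches to a TATA box (TATAAA, in 10.7% of windows; it can overlap the shortened form), GC box (GGGCGG, 42.6%), AP-1 (TGANTCA, 6.57%), CCAAT box (CCAAT, 32.0%), FOXA (TGTTTAC, 2.98%), GRHL (AACCGGTT, 0.117%) or AP-2 (GCCNNNGGC, 19.8%). The full androgen response element searched was in 1 window of all, and its first part (AGAACA), which the full element contains, was in 12.4% of windows and in neither of these.

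KRT8, the main type II keratin of simple epithelia (ENSG00000170421, chromosome 12, 52897187 to 52949954, GRCh38), had 703, 736 and 727 CPM in the Control libraries and 549.5, 592 and 599 in ENZ. Every ENZ library lay below every Control library. The means were 722 ± 17.1 and 580.2 ± 26.8 CPM (SD, n = 3). Its fitted log2 fold change was −0.28 ± 0.04 (SE, 95% confidence interval −0.36 to −0.20, adjusted p = 4.32e-06). Unless another test is named, adjusted p-values are from the quasi-likelihood test of edgeR, adjusted by Benjamini-Hochberg over all genes tested.

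KRT18, the main type I partner of KRT8 (ENSG00000111057, chromosome 12, 52948871 to 52952906), had 234, 241 and 229.9 CPM in Control and 193, 211 and 207 in ENZ. The groups did not overlap. The means were 235 ± 5.61 and 204 ± 9.10 CPM, and the fitted log2 fold change was −0.17 ± 0.04 (interval −0.26 to −0.09, adjusted p = 0.00170). This was the smallest fall of the 3 luminal keratins.

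KRT19, a type I keratin with almost no tail domain that also pairs with KRT8 (ENSG00000171345, chromosome 17, 41523617 to 41528308), had 46.7, 44.2 and 47.7 CPM in Control and 32.1, 33.2 and 33.8 in ENZ. Here too the groups were apart. The means were 46.2 ± 1.80 and 33.0 ± 0.844 CPM, and the fitted log2 fold change was −0.45 ± 0.05 (interval −0.56 to −0.34, adjusted p = 1.06e-06).

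**Figure D1:**
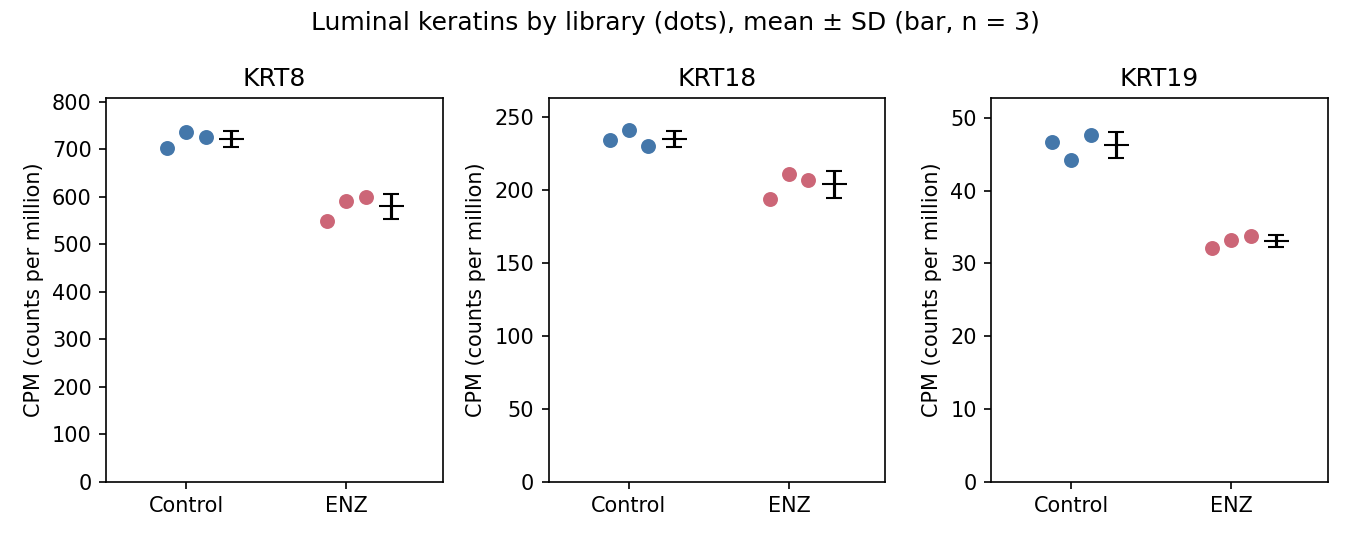
CPM (y axis, linear from 0) of KRT8, KRT18 and KRT19 in each library (dots, Control blue and ENZ red), with the mean and SD of 3 libraries (black bar). In each panel all ENZ dots lie below all Control dots, for KRT8 at 549.5 to 599 against 703 to 736 CPM.

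All 3 luminal keratins were called lower, where 19.3% of all genes tested were lower and 20.5% higher, and their median log2 fold change was −0.28 beside −0.0059 over all genes tested. General epithelial markers did not fall with them: of 7 tested 5 rose and 0 fell, and the 8 measured summed to 1336 to 1364 CPM in Control and 1518 to 1549 in ENZ. The log2 fold change of the junction protein CLDN7 was 0.47 (adjusted p = 3.45e-09) and that of the splicing regulator ESRP1 0.26. The junction protein CLDN4 had 0.19, the splicing regulator ESRP2 0.17 and the cadherin CDH1 0.13, all called. In 2 of the 17 other settings of the gene test ESRP2 was not called. Its value was 0.075 once GC content and length were offset (adjusted p = 0.0636). In limma on unfiltered log2(FPKM + 1) its value was 0.13 (adjusted p = 0.0596). CLDN7, ESRP1 and CLDN4 were called in all 17, CLDN4 at 0.093 to 0.22. EPCAM, an adhesion protein, had −0.09 (adjusted p = 0.180) and SPINT1, a protease inhibitor, 0.10 (adjusted p = 0.0594). Their part in the keratin result was not tested. The falls of the keratins were small: 2.98% of genes tested were called with an absolute log2 fold change over 1, and none of these 3 was among them. The 3 genes were lower with a call under each of the 17 other settings of the gene test. Their GC content was 55.7% to 61.8%; over all genes tested, genes of 50 to 60% GC had a median log2 fold change of 0.06, those over 60% of 0.14 and those under 40% of −0.18. With offsets for GC content and length the log2 fold changes were −0.35 for KRT8, −0.21 for KRT18 and −0.52 for KRT19. With library totals alone, the scale of the CPM, they were −0.32 for KRT8, −0.21 for KRT18 and −0.48 for KRT19.

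The luminal keratins also differed in how far they fell, so their proportions shifted between groups. There were 3.00, 3.05 and 3.16 KRT8 counts for each KRT18 count in Control and 2.84, 2.81 and 2.90 in ENZ. For KRT19 there were 0.200, 0.183 and 0.207 counts for each KRT18 count in Control and 0.166, 0.157 and 0.163 in ENZ. Neither ratio overlapped between the groups, and both were lower in ENZ. Within the summed FPKM (fragments scaled by gene length and library total) of the 3 genes, KRT18 made up 38.04% ± 0.667 in Control and 40.3% ± 0.390 in ENZ, and KRT19 9.83% ± 0.499 and 8.59% ± 0.189. Together the 3 genes held 0.1003% ± 0.00188 of library counts in Control and 0.0817% ± 0.00363 in ENZ. No test was made on these ratios, because the members were chosen.

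**Figure D2:**
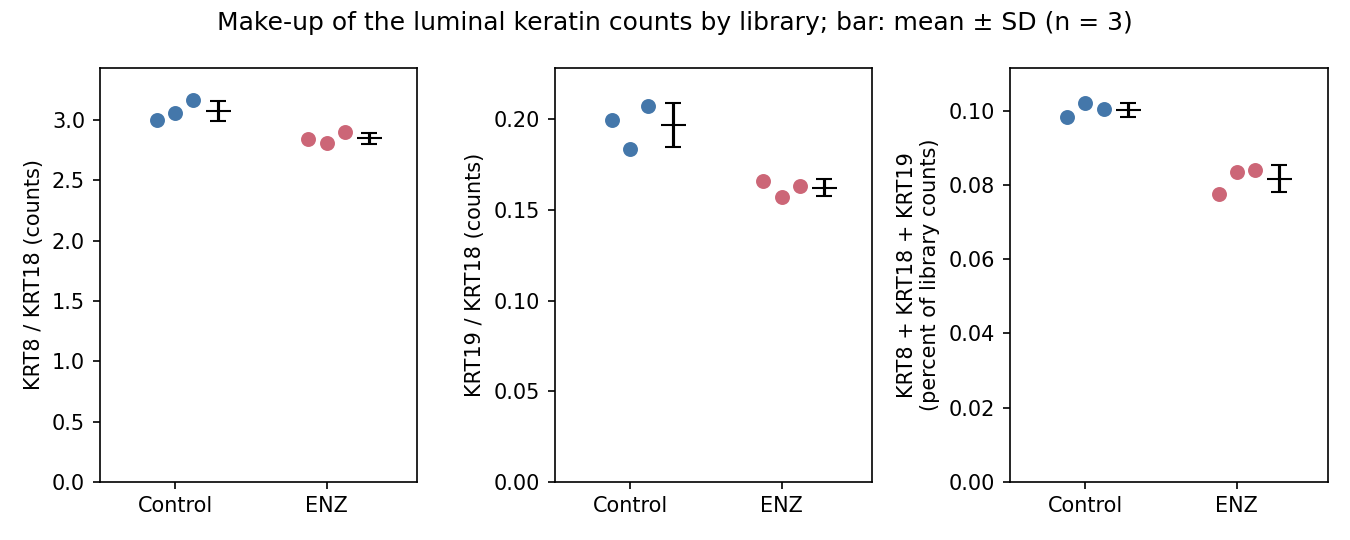
Counts of KRT8 and of KRT19 for each KRT18 count, and the percent of library counts held by the 3 luminal keratins (y axes, linear from 0), by library (dots) with mean and SD (n = 3). Each quantity is lower in every ENZ library than in every Control library, for KRT8 over KRT18 at 2.81 to 2.90 against 3.00 to 3.16.

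Per length the order of levels was KRT8, KRT18, KRT19, KRT7, KRT15 in every library, with the other basal genes below. In FPKM the means in Control and ENZ were 105 ± 2.48 and 84.3 ± 3.90 for KRT8, 76.6 ± 1.83 and 66.3 ± 2.96 for KRT18, and 19.8 ± 0.772 and 14.1 ± 0.361 for KRT19. KRT7 followed at 1.05 ± 0.0444 and 1.06 ± 0.168 FPKM and KRT15 at 0.145 ± 0.00829 and 0.0766 ± 0.0219. TP63 (0.0176 ± 0.0191 and 0.00148 ± 0.00257 FPKM), KRT5 and KRT17 rested on 12, 1 and 0 counts over all libraries. Their order was not tested. By mean FPKM over the 6 libraries KRT8 ranked 358 and KRT18 522 among the 37923 genes.

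How far KRT8 exceeded its partner depended on the length used. The lengths behind the deposited FPKM equal the merged exons of all transcripts of a gene, 6881 bp for KRT8, 3069 bp for KRT18 and 2336 bp for KRT19, while the canonical transcripts have 1784, 1413 and 1390 bp. KRT8 over KRT18 was 1.37 ± 0.0363 by FPKM in Control and 2.43 ± 0.0644 by counts per kilobase of the canonical transcript. Against KRT18 and KRT19 together it was 1.09 ± 0.0247 by FPKM and 2.03 ± 0.0464 by canonical length. In ENZ the latter ratios were 1.05 ± 0.0144 and 1.94 ± 0.0272. The difference between groups in any 1 gene does not involve its length.

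KRT8 and KRT18 lie next to each other on opposite strands, and 525 bp of exon belong to both. Of these, 375 bp lie in the canonical transcript of KRT18 and 0 in that of KRT8. The library kit keeps no record of the strand, so reads there cannot be assigned to 1 gene, and the counts of both are uncertain to that extent. Both genes also have many processed pseudogenes, copies of the mRNA scattered over the genome. The 37 KRT8 pseudogenes in the table held 281 to 397 counts per library, 1.78% to 2.02% of the KRT8 count, and the 39 KRT18 pseudogenes held 41 to 77, 0.674% to 1.31% of the KRT18 count. Of 6 tested KRT8 pseudogenes 2 were called, beside 39.8% of all genes tested (19.3% lower), and nothing particular to them is read from this count. Both were lower: KRT8P12 (log2 fold change −0.37 ± 0.10, adjusted p = 0.00583) and KRT8P33 (−0.68 ± 0.23, adjusted p = 0.0250). These 2 were named after their values were seen. How many of these counts came from the parent genes was not tested.

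KRT15, a type I keratin of basal and progenitor cells (ENSG00000171346, chromosome 17, 41513745 to 41522529), had 24, 25 and 22 counts in Control and 13, 16 and 10 in ENZ. All ENZ libraries were below all Control libraries, as they were for 4 of the 5 members tested and for 24.0% of all genes tested (49.3% were apart in either direction). In CPM the means were 0.865 ± 0.0495 and 0.457 ± 0.131, and the fitted log2 fold change was −0.89 ± 0.31 (interval −1.54 to −0.24, adjusted p = 0.0278). The call rested on few counts: DESeq2 gave an adjusted p of 0.148, and leaving out 1 library ended the call for Control replicate 1 (adjusted p = 0.0649), Control replicate 2 (0.0745), Control replicate 3 (0.0568), ENZ replicate 1 (0.0650) and ENZ replicate 3 (0.117) in edgeR. The expression filter was near 0.361 CPM, which KRT15 exceeded in 3 Control and 2 ENZ libraries. KRT15 is the neighbour of KRT19, downstream on the same strand with 1087 bp between the gene ends, and had 1.73 to 2.08 counts per 100 KRT19 counts in Control and 1.01 to 1.80 in ENZ. Whether reads from the KRT19 locus contribute to it was not tested.

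TP63, the transcription factor that sets the basal program (ENSG00000073282, chromosome 3, 189631389 to 189897276), had 8, 0 and 3 counts in Control and 1, 0 and 0 in ENZ. The groups overlapped at 0, and 8 of the 12 counts came from Control replicate 1. The ratio of ENZ to Control was 0.0866, with an exact 95% interval of 0.00201 to 0.596 that covers counting error only, and the gene was below the expression filter.

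KRT5, the type II keratin of basal cells whose upstream window is printed above, had 1 count, in ENZ replicate 2, and 0 in the other libraries. KRT17, a type I keratin induced in injured and basal epithelium, had 0 counts in all 6. A count of 0 over a group allows a level of up to 0.0366 CPM in Control and 0.0348 in ENZ (3 counts), for counting error only. KRT17 shares long near-identical stretches with KRT14, KRT16 and its own pseudogenes, and the 3 KRT17 pseudogenes in the table held 0 to 7 counts per library, and reads shared by these copies cannot be assigned to 1 of them. At this depth no difference in KRT5 or KRT17 was detectable.

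**Figure D3:**
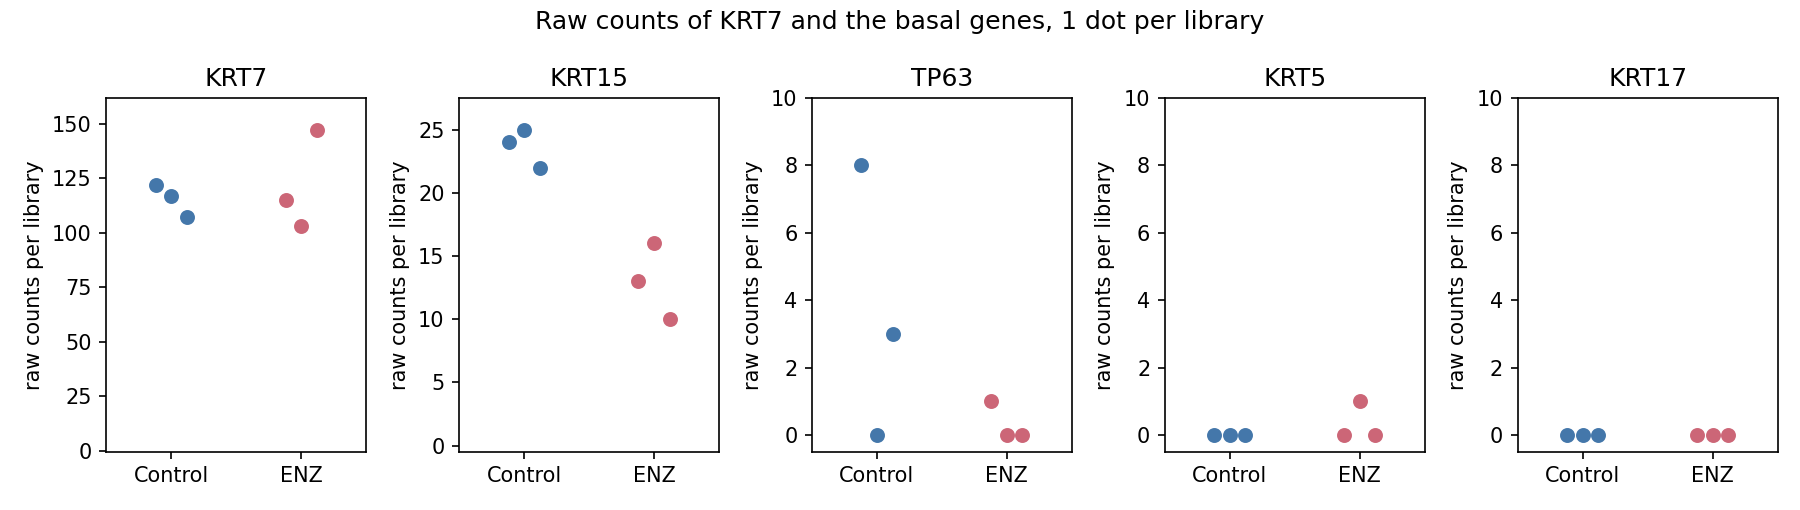
Raw counts per library (y axis, linear, a scale per panel) of KRT7, KRT15, TP63, KRT5 and KRT17, 1 dot per library. KRT15 has 22 to 25 counts in Control and 10 to 16 in ENZ, KRT7 overlaps between groups, and KRT17 is at 0 throughout.

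Set side by side, the luminal genes summed to 198, 204 and 201 FPKM in Control and to 157, 169 and 169 in ENZ. The 4 basal genes measured summed to 0.180, 0.154 and 0.153 FPKM in Control and to 0.0770, 0.109 and 0.0570 in ENZ. Both sums were lower in every ENZ library. The luminal sum exceeded the basal sum 1099-fold to 1326-fold in Control and 1545-fold to 2965-fold in ENZ. On the log2 scale the ratio was 10.28 ± 0.15 in Control and 11.04 ± 0.47 in ENZ, a difference of 0.76 that rests on 10 to 32 basal counts per library. As a description of chosen genes it has no test.

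KRT7, a type II keratin of ducts and simple epithelia that is low in most intestinal tissue (ENSG00000135480, chromosome 12, 52232520 to 52252186), had 4.33, 4.31 and 4.01 CPM in Control and 3.83, 3.85 and 5.00 in ENZ. The groups overlapped, with ENZ replicate 3 highest and the other ENZ libraries lowest. Its log2 fold change was 0.04 ± 0.14 (interval −0.24 to 0.32; adjusted p = 0.842). Without ENZ replicate 3 the change was −0.10 (adjusted p = 0.624). The interval includes the value of KRT18 and not those of KRT8 or KRT19, but it overlaps the interval of KRT8 (−0.36 to −0.20). A difference between genes was not tested. KRT7-AS, an antisense gene with exons over KRT7, had at most 1 count in a library, and without strand its reads cannot be told from those of KRT7.

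Of 55 keratin genes listed, 25 were in the table, 7 of these had 0 counts in all libraries, and 9 passed the expression filter. Outside the members, KRT10, a type I keratin of differentiated epidermis, had a mean of 10.2 ± 1.32 CPM in the Control libraries and 10.2 ± 1.55 in those of ENZ (4.72 and 4.73 FPKM, above KRT7), with a log2 fold change of 0.04 (adjusted p = 0.823). KRT81, a type II hair keratin also made by some tumours, had 6.13 ± 0.730 and 6.91 ± 0.949 CPM (3.18 and 3.58 FPKM, also above KRT7), and its log2 fold change was 0.21 (adjusted p = 0.179). KRT80, named after its values were seen because it was the one called keratin outside the members, had 16, 6 and 10 counts in Control and 25, 23 and 24 in ENZ. Its log2 fold change was 1.13 ± 0.34 (adjusted p = 0.0117). The call ended in DESeq2 (adjusted p = 0.0676), without Control replicate 2 (0.0654) and in limma on unfiltered log2(FPKM + 1) (0.142).

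**Figure D4:**
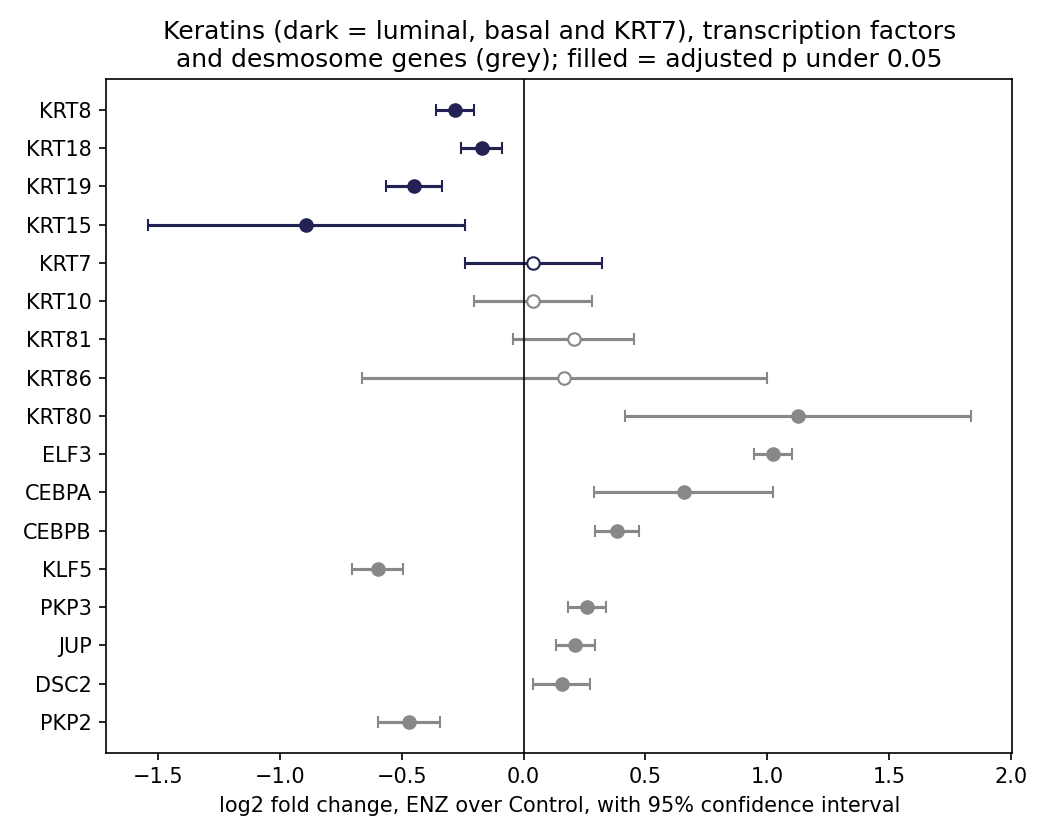
Log2 fold change of ENZ over Control with its 95% confidence interval (x axis) for the 9 keratins tested and for the transcription factor and desmosome genes with the largest called changes (filled: adjusted p under 0.05). KRT8, KRT18, KRT19 and KRT15 lie left of 0 while KRT7 and KRT10 straddle it.

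Genes for the anchors of keratin filaments include members called in each direction. The counts that follow are to be read beside the 20.5% of all genes tested that were called higher and the 19.3% called lower, and nothing particular to a list is read from them. Of 8 desmosome genes tested 4 rose and 1 fell, with a median log2 fold change of 0.07. Desmosomes are the junctions to which keratin filaments attach. The plakophilin PKP3 rose by 0.26 ± 0.04 (187 to 219 CPM; adjusted p = 8.68e-06), JUP, plakoglobin, by 0.21 ± 0.04 (171 to 194 CPM), and the cadherin DSC2 by 0.16 ± 0.06, while the plakophilin PKP2 fell by 0.47 ± 0.06, a log2 fold change of −0.47 (36.0 to 25.3 CPM; adjusted p = 2.46e-06). Without Control replicate 1 the list had 2 rises, without ENZ replicate 1 it had 2 falls, and the DSC2 call ended without Control replicate 1 (adjusted p = 0.103), Control replicate 2 (0.111) or ENZ replicate 1 (0.0947). It also ended with DESeq2 (0.0510), with library totals alone (0.0973) and in the 3 limma fits on FPKM (0.201 to 0.372), in all 8 of 17 settings. Of 12 plakins and keratin-binding proteins tested 4 rose and 1 fell. The plakins PPL (log2 fold change 0.69) and EPPK1 (0.31) and the ubiquitin ligase STUB1 (0.23) rose, and the plakin DST fell by 0.28 (−0.28). With GC and length offsets EPPK1 was no longer called (adjusted p = 0.0620) and 3 genes of the list fell. In limma on unfiltered log2(FPKM + 1) the calls of EPPK1 (adjusted p = 0.110), PPL (0.138) and DST (0.106) ended.

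Beside the same 20.5% higher and 19.3% lower over all genes, of 8 tested hemidesmosome and basal laminin genes, which fix basal cells to their matrix, 3 rose and 1 fell: the integrin ITGA3 (0.39), the tetraspanin CD151 (0.35) and the laminin LAMA5 (0.22) rose, and the laminin LAMA3 fell by 0.55 (−0.55). The LAMA5 rise was 0.03 with GC and length offsets (adjusted p = 0.487), and the LAMA3 call ended in limma on unfiltered log2(FPKM + 1) (0.250). COL17A1, a hemidesmosome collagen, reached at most 0.340 CPM in a library and ITGB4 at most 0.833. Of 14 other basal epithelial genes tested 4 rose and 2 fell, with the receptor FGFR3 (0.47) and the Notch ligand JAG2 (0.45) rising and the hyaluronan receptor CD44 (−0.40) and the peptidase MME (−0.29) falling. The MME call ended without Control replicate 3 (adjusted p = 0.0506), with GC and length offsets (0.265) and in limma on unfiltered log2(FPKM + 1) (0.125). Of the 16 in that list 7 had a mean under 1 CPM, among them S100A2, NGFR and TRIM29.

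Of 16 epithelial transcription factors tested 5 rose and 3 fell, beside 20.5% and 19.3% of all genes tested, with a median log2 fold change of 0.05; with GC and length offsets 8 rose. ELF3, an epithelial ETS factor, rose from 111 ± 2.13 to 220.1 ± 4.76 CPM, and its log2 fold change was 1.02 ± 0.04 (adjusted p = 3.37e-15). CEBPA and CEBPB, bZIP factors, rose by 0.66 and 0.38, and the CEBPA call ended in limma on unfiltered log2(FPKM + 1) (adjusted p = 0.135). KLF5, a zinc-finger factor of proliferating epithelium, had 59.97 ± 1.59 CPM in Control and 38.7 ± 1.32 in ENZ; its log2 fold change was −0.60 ± 0.05 (adjusted p = 5.32e-09). Of 9 other intermediate filament genes tested 2 rose, PRPH (0.71) and SYNM (0.32), and 1 fell, the nuclear lamin gene LMNB1 (−0.17). The rises numbered 1 without Control replicate 1, Control replicate 2 or ENZ replicate 2, each of which ended the SYNM call (adjusted p = 0.0855, 0.0703 and 0.0912), and 4 without ENZ replicate 1. The SYNM call also ended in the 3 limma fits on FPKM (0.126 to 0.268), and the PRPH call in limma on unfiltered log2(FPKM + 1) (0.0968). VIM, the filament protein of mesenchymal cells, had 19.1 CPM over all libraries and a log2 fold change of 0.04 (adjusted p = 0.674).

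Among 10127 genes with a mean of at least 10 CPM, those whose centred log2 CPM was closest to a luminal keratin over the 6 libraries were named by the root mean square distance. For KRT8 they were HELZ2 (0.016 log2 units), NCAPD2 (0.020) and CDKN2C (0.021), for KRT18 PKMYT1 (0.018) and DCUN1D5 (0.020), and for KRT19 CD44 (0.029), ACYP1 (0.029) and SORD (0.031). KRT8 and KRT18 were 0.060 apart, KRT8 and KRT19 0.097, and KRT18 and KRT19 0.15. HELZ2, NCAPD2 and CDKN2C had log2 fold changes of −0.27, −0.28 and −0.30, beside −0.28 for KRT8. Among this many genes, over 6 libraries in 2 groups, a close match can come from a similar group difference alone. Shared regulation was not tested.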

How the data were processed

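Per the labels' protocols, polyadenylated RNA was made into libraries with a kit that does not mark strand. HTSeq 0.6.1, DESeq2 1.20.0, HISAT2 2.0.5 and GRCh38 are listed in the submitters' processing notes. Annotation release, strand setting and filters: not given in the sources used here. The authors deposited raw counts and FPKM for 37923 genes. The deposited FPKM equalled the count over 1 length per gene and the library total, to within 4.37e-06 percent, and that length equalled the merged GENCODE 44 exons in 90.1% of 20362 genes. Libraries of a group differed by more than sampling noise (chi-square per degree of freedom 1.99 to 6.77). A count of 0 in a library allows up to 0.0999 to 0.112 CPM (3 counts).

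Counts were tested with edgeR 4.0.16 in R 4.3.3 (TMM, default filter, robust quasi-likelihood, adjusted p under 0.05 over 18581 genes; the SE is the absolute log2 fold change over the square root of F), after checks on simulated data. The members and lists were chosen with earlier results of these data known. Named are all members, other keratins of at least 1 CPM, up to 4 called genes of at least 1 CPM with the largest change per list, and the 3 nearest patterns per luminal keratin (1 is not reported here); others were named after their values were seen. Alternatives were DESeq2 1.42.0, limma-voom and limma on log2 FPKM (limma 3.58.1), other scalings and filters, a replicate block, GC and length offsets (splines with 4 degrees of freedom, values for 99.8% of genes) and each library left out. Lengths per canonical transcript were added after the data were seen.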

Additional observations from a re-analysis of the deposited data

How the results depend on the processing

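KRT8, KRT18 and KRT19 stayed lower and called in each of the 17 other settings. Their log2 fold changes ran from −0.35 to −0.24 for KRT8, −0.21 to −0.13 for KRT18 and −0.52 to −0.42 for KRT19. Each fall was smallest without ENZ replicate 1. The adjusted p of KRT18 was highest in limma on unfiltered log2(FPKM + 1), at 0.0309. Called genes numbered 3728 (1723 higher, 2005 lower) on unfiltered log2(FPKM + 1), and 2526 and 2520 were higher on filtered log2(FPKM + 1) and log2(FPKM + 0.1). The log2 fold change of KRT15 was −0.88 with DESeq2 and −0.089 on unfiltered log2(FPKM + 1), neither with a call, and −1.12 to −0.72 with a library left out, at 10 to 25 counts per library; the cause was not tested. It was not tested on FPKM filtered at a mean of 1. The uncalled value of KRT7 turned to −0.00052 on log2(FPKM + 1), with or without a filter, to −0.0047 on log2(FPKM + 0.1) and to −0.041 with GC and length offsets, and was −0.10 to 0.12 with a library left out; the cause was not tested. KRT10 turned to −0.00014 and −0.00052 on these FPKM scales, and with a library left out ran from −0.098 (without ENZ replicate 3; −0.039 without Control replicate 3) to 0.15 (without Control replicate 2). DCUN1D5 turned to 0.073 with GC and length offsets. Same-numbered libraries of the groups did not deviate together (correlations 0.018, −0.012 and −0.046). The labels do not say whether they shared a dish, day or passage, and 3 libraries per group are too few to tell. The replicate block gave 7466 calls, with KRT8 at −0.28, and changed no call of a member.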
